A study of Mus musculus with 6 samples.

Results

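The mitochondrially encoded transcripts of tumour regulatory T (Treg) cells were taken as every row of the deposited expression table whose gene name begins with mt-. They were 37 of 55450 genes: 13 protein-coding genes, 2 ribosomal RNA genes and 22 transfer RNA genes. Their identifiers are those of every gene that GENCODE mouse release M21 places on chromosome M of GRCm38. The libraries were made from Treg cells sorted from tumours of about 8 mm that MC38 cells, a mouse colon carcinoma line, had formed in C57BL/6 mice. The Tim-3 sufficient group comprised 3 libraries from mice whose Treg cells keep Tim-3, an inhibitory receptor encoded by Havcr2, and the Tim-3 deficient group 3 libraries from mice whose Treg cells lack it. The labels name no Cre driver, deleted exon, age or sex. Nor do they tie each library to a mouse of its own, and the spread behind every p-value may therefore be technical. In each group 1 library has a calendar date in its column name and is called dated, and the other 2 carry none and are named by their column marks (sufficient A1 and B1, deficient C1 and D).

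The mouse mitochondrial genome is a small circle present in many copies per cell. It is transcribed from both strands into long precursors, from which the transfer RNAs that punctuate the sequence are cut out, releasing ribosomal and messenger RNAs. The messenger RNAs encode core subunits of respiratory complexes I, III and IV and of ATP synthase (complex V), whose other subunits are encoded in the nucleus. Treg cells are known for a strong reliance on oxidative metabolism.

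Values are log2(TPM + 1), where TPM is abundance per unit of transcript length scaled to a fixed total per library. Levels can thus be set side by side between genes, but each value is a share of the whole. How well the libraries captured ribosomal RNA relative to messenger RNA was not tested. The number of reads is not recoverable from TPM, and library depth is unknown. Between 11470 and 12681 genes had a log2 value of at least 1 in a library. Havcr2 stood at 4.49 to 5.70 in sufficient and 2.55 to 4.27 in deficient libraries. All 9 Treg and T cell markers were detected, and their summed TPM was 10257 to 12204 in sufficient and 7147 to 9876 in deficient libraries. The 10 macrophage and monocyte markers summed to 943 TPM in sufficient B1 and 1379 in deficient C1, against 21.6 to 135 in the other 4 libraries. The 4 B cell markers summed to 10.3 to 22.6 TPM in sufficient and 14.4 to 46.6 in deficient libraries, with Ms4a1 at 0 in all 6. The 5 tumour epithelial markers summed to 9.80 to 17.2 and 12.8 to 24.6 TPM, with 2 of them, including Krt19, at 0 in all 6. The part of these cell types in the mitochondrial values was not tested beyond the left-out libraries given below.

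Many mitochondrial genes have near-identical copies in the nuclear genome, and this decides which rows of the table can be read alone. A search of all GENCODE M21 transcripts found 7 annotated nuclear copies that matched a mt- gene at 99% identity or more over at least 200 bases. All 7 lie on the minus strand of chromosome 1 in 1 stretch of 4663 bases (GRCm38, chr1:24611535-24616197), in the same order as their sources on the mitochondrial circle, and are annotated as unprocessed pseudogenes. They are Gm29216 (a copy of part of mt-Co1), Gm28661 (mt-Co2), Gm10925 (mt-Atp6), Gm28437 (mt-Co3), Gm28438 (mt-Nd3), Gm10222 (mt-Nd4l) and Gm28439 (part of mt-Nd4). Another 52 genes gave weaker or shorter matches, and the highest value any of them reached in a library was 4.77.

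The copies are shown here by the stretches that do or do not tell them from their source. Gm28437 matched mt-Co3 (cytochrome c oxidase subunit 3) without a mismatch over 783 of its 784 bases. The first 60 bases of both, with the start codon in capitals, lie at chrM:8607-8666 on the plus strand and chr1:24613912-24613971 on the minus strand.
mt-Co3: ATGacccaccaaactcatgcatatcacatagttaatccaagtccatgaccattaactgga
Gm28437: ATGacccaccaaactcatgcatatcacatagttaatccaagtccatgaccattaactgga
Gm29216 matched bases 1063 to 1545 of mt-Co1 (cytochrome c oxidase subunit 1) with 1 mismatch in 483 aligned bases, A1066T, counted from 1 at the 5′ end of mt-Co1. The base in capitals marks it, at chrM:6373-6413 and chr1:24616165-24616197, and the first 9 bases of the copy fall outside the alignment.
mt-Co1: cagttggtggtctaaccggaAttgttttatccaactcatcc
Gm29216: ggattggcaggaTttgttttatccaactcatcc
Gm28438 matched mt-Nd3 (a complex I subunit) with 1 mismatch in 345 aligned bases, T3C, in the first codon, at chrM:9459-9481 and chr1:24613097-24613119.
mt-Nd3: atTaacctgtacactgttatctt
Gm28438: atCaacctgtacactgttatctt
Gm28661, Gm10925, Gm10222 and Gm28439 had no mismatch over 681, 678, 294 and 876 aligned bases. A read from within such a stretch is the same whether it came from the mitochondrial or the nuclear gene.

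Values were divided between source and copy very unequally from gene to gene. mt-Co3 was listed at 9.96, 10.32 and 10.68 in sufficient A1, B1 and dated and at 9.57, 9.79 and 10.17 in deficient C1, D and dated. Its copy Gm28437 was listed at 12.40, 12.52 and 13.16 and at 12.50, 12.36 and 13.10 in the same libraries. In every library the nuclear row was therefore the higher of the pair, and it held 82.1% to 88.4% of their summed, length-weighted TPM. Gm29216 was listed at 12.22 to 13.53 and held 38.4% to 46.1% of its sum with mt-Co1. mt-Nd4l, a small complex I subunit, was listed at 0 in sufficient B1 and deficient dated and at 3.68 to 4.75 in the other 4 libraries, while Gm10222 had 7.97 to 8.83 in all 6. The row of mt-Nd4l therefore held at most a few percent of the pair, since the share of the copy was 92.7% to 100%. In the other direction, Gm10925 held 1.26% to 2.82% of its sum with mt-Atp6, Gm28661 2.72% to 11.1% of its sum with mt-Co2 and Gm28438 9.66% to 31.2% of its sum with mt-Nd3. Gm28439 was at 0 to 0.21 in the 6 libraries. The table alone does not tell whether RNA of the nuclear copies was present. The group difference of each of these genes is therefore given below with its copy added, the copy's TPM weighted by the ratio of the lengths. It is also given as deposited, except for mt-Nd4l. Values of single libraries are as deposited unless stated.

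**Figure D1:**
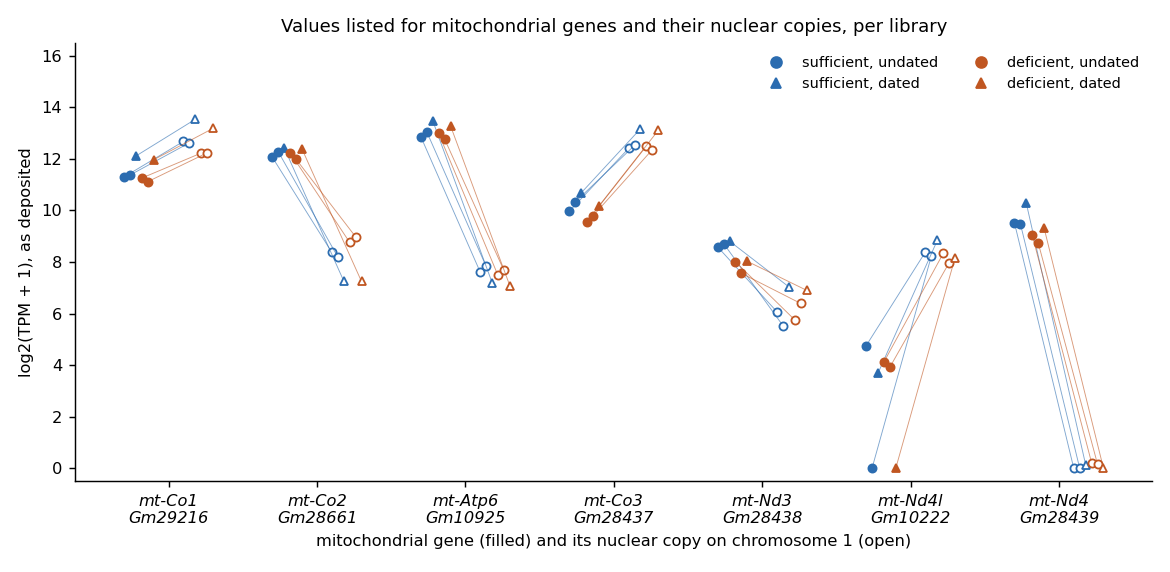
Deposited log2(TPM + 1) of 7 mitochondrial genes (filled) and of their nuclear copies on chromosome 1 (open), with a line joining the pair in each of 6 libraries; circles are undated and triangles dated libraries, blue sufficient and orange deficient. The copies of mt-Co1, mt-Co3 and mt-Nd4l stand above their sources, and mt-Nd4l is at 0 in 2 libraries.

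Of the 37 genes, 15 had a value above 0 in some library and 14 in every library. All 22 transfer RNA genes were at 0 in all 6 libraries. Their annotated lengths are 59 to 75 bases and the reads were 75 bases long, while the shortest mt- gene with a value, mt-Atp8, has 204 bases. The 13 protein-coding rows together took 2.26% to 3.80% of the TPM of a library, and 3.04% to 5.18% with the nuclear copies added. As deposited, mt-Atp6, the channel-forming subunit of ATP synthase, was the highest at a mean of 13.06 over the 6 libraries, rank 4 of all genes in the table by mean TPM. It was followed by mt-Co2 at 12.22, mt-Atp8 at 11.85, mt-Co1 at 11.52, mt-Nd1 at 11.20 and mt-Cytb at 11.18. Each of these exceeded the next in 6 of 6 libraries except mt-Nd1, which exceeded mt-Cytb in 3. The complex I genes mt-Nd4, mt-Nd2, mt-Nd6, mt-Nd3 and mt-Nd5 formed the low end of the messenger RNAs, mt-Nd4l apart, with means of 9.39, 9.18, 8.40, 8.28 and 8.25, and mt-Nd3 exceeded mt-Nd5 in only 3 of 6 libraries. Between them lay mt-Rnr2 at 10.27, mt-Co3 at 10.08 and mt-Rnr1 at 9.47, of which none exceeded the next gene in all 6 libraries. With the copies added, mt-Co3 moved up in that order from a mean of 10.08 to 12.90, next to mt-Atp6 at 13.10. mt-Co1 then stood at 12.32 beside mt-Co2 at 12.31, each the higher in 3 libraries, and mt-Nd4l moved from 2.75 to 8.36, between mt-Nd6 and mt-Nd5.

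**Figure D2:**
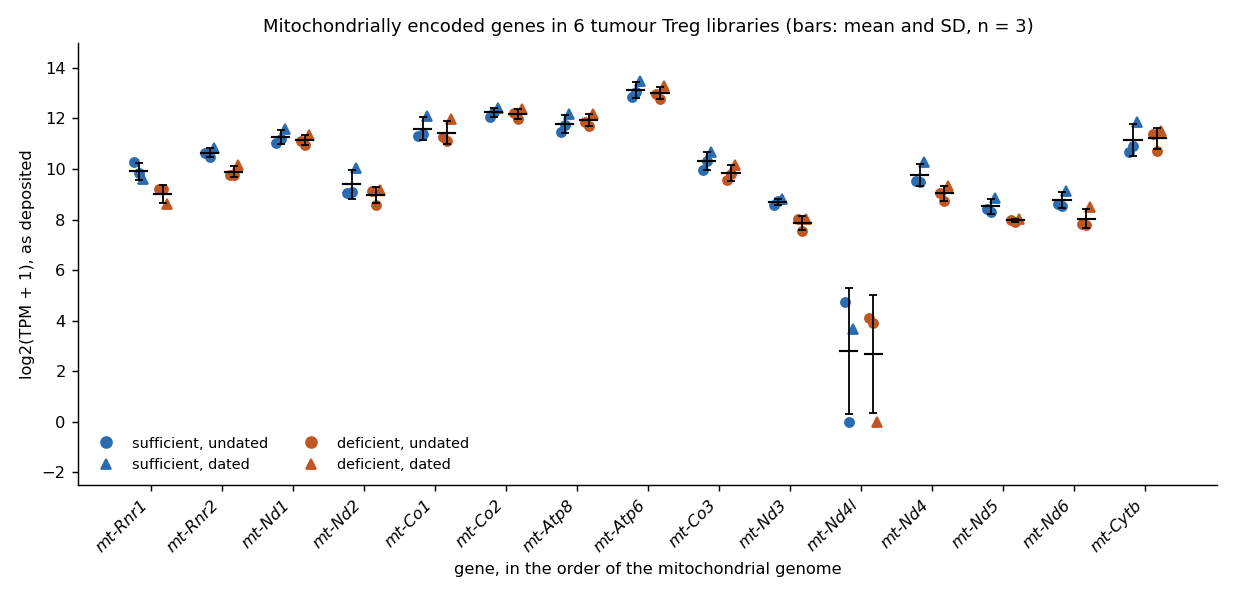
Deposited log2(TPM + 1) of the 15 mitochondrial genes with a value above 0, in the order of the circle, 1 point per library (circles undated, triangles dated), with the mean and SD of each group (n = 3) as black bars. Both ribosomal RNAs, mt-Nd3, mt-Nd4, mt-Nd5 and mt-Nd6 show no overlap between the sufficient (blue) and deficient (orange) libraries.

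The comparison of the design asks how the loss of Tim-3 alters Treg cells in a tumour, and in the mitochondrial set the values differed by gene. Both ribosomal RNAs and the complex I messenger RNAs mt-Nd3, mt-Nd4, mt-Nd5 and mt-Nd6 were lower in each deficient than in each sufficient library, by 1.46-fold to 1.86-fold. The abundant messenger RNAs of complexes III, IV and V and mt-Nd1 differed by less than their standard errors, except mt-Co3 as deposited. In limma over 12155 tested genes, none of the 15 tested mitochondrial genes passed an adjusted p of 0.05, against 0.206% of all tested genes. At an unadjusted limma p under 0.05 there were 6 of 15, all lower, against 11.7% of all genes in either direction and 4.69% lower. Groups did not overlap, with the deficient libraries lower, at the same 6 of 15 genes and at 6.73% of all genes (17.6% in either direction). Lower values in both date classes, with the undated groups not overlapping and the dated pair in the same order, were found for 8 of 15 and for 12.3% of all genes. The median difference was -0.43 over the 15 genes and 0.09 over all tested genes. With a block for the date mark in the fit, 5 of the 15 passed, all lower, against 1.97% of all genes in either direction and 0.856% lower. Havcr2 itself had a difference of -1.83 with a standard error of 0.48 (limma adjusted p = 0.211, and 0.0148 with the date block), so it too passed only with the block. The 5 mitochondrial calls changed with the libraries used, as did the count over all 12155 tested genes, 240 in the blocked fit. Without both dated libraries 2 mitochondrial genes passed, against 1.77% of all genes. In the blocked fit 0 passed without sufficient A1, against 12 of all genes. The counts were 0 against 15 without sufficient B1, 0 against 40 without deficient D and 5 against 218 without deficient C1. In bulk libraries, fewer mitochondrial transcripts per Treg cell and a changed mix of cells cannot be told apart.

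The ribosomal RNAs form the core of the mitochondrial ribosome, mt-Rnr1 (12S; ENSMUSG00000064337.1, GRCm38 chrM:70-1024) in the small and mt-Rnr2 (16S; ENSMUSG00000064339.1, chrM:1094-2675) in the large subunit. mt-Rnr1 had 10.29, 9.83 and 9.62 in sufficient A1, B1 and dated, and 9.22, 9.22 and 8.62 in deficient C1, D and dated. Its lowest sufficient value lay above its highest deficient value, and in each group the dated library was the lowest. The mean was 9.91 ± 0.34 in sufficient and 9.02 ± 0.35 (SD, n = 3) in deficient libraries, a difference of -0.89 with a standard error of 0.23 (limma adjusted p = 0.194, and 0.0285 with the date block). mt-Rnr2 had 10.64, 10.49 and 10.83 in the sufficient and 9.77, 9.78 and 10.14 in the deficient libraries, in the same order. Here the groups did not overlap either, but the dated library was the highest of each group. The difference was -0.76 with a standard error of 0.16 (limma adjusted p = 0.128, and 0.0210 with the date block). Undated libraries alone gave -0.84 for mt-Rnr1 and -0.79 for mt-Rnr2, and the dated pair gave -0.68 for mt-Rnr2. Without sufficient B1 and deficient C1, the pair with the most macrophage marker RNA, they were -1.03 and -0.77. Together the ribosomal RNAs took 0.284%, 0.235% and 0.260% of the TPM in sufficient A1, B1 and dated and 0.147%, 0.147% and 0.152% in deficient C1, D and dated. The mean share was 0.260% ± 0.024 in sufficient and 0.149% ± 0.0029 (SD, n = 3) in deficient libraries, a log2 difference of -0.80 that stayed between -0.73 and -0.87 when any 1 library was left out. Neither ribosomal RNA had a near-identical copy among the annotated transcripts.

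The summed messenger RNAs did not separate the groups. The 13 protein-coding rows took 2.41%, 2.73% and 3.80% of the TPM in sufficient A1, B1 and dated and 2.66%, 2.26% and 3.26% in deficient C1, D and dated. The dated library was the highest in each group, and the undated libraries of the groups were interleaved. The log2 difference of the summed messenger RNAs was -0.12 (undated alone -0.06, dated alone -0.22) and -0.11 with the nuclear copies added. The sum is weighted to the abundant genes, and the mean of the log2 values over the 13 genes, which weights them equally, differed by -0.32. For every 100 TPM of messenger RNA there were 11.8, 8.63 and 6.84 TPM of ribosomal RNA in sufficient A1, B1 and dated and 5.52, 6.51 and 4.67 in deficient C1, D and dated. All deficient ratios lay below all sufficient ones here too. The ratios are of RNA captured in the libraries, and their relation to the proportion in the cells was not tested.

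**Figure D3:**
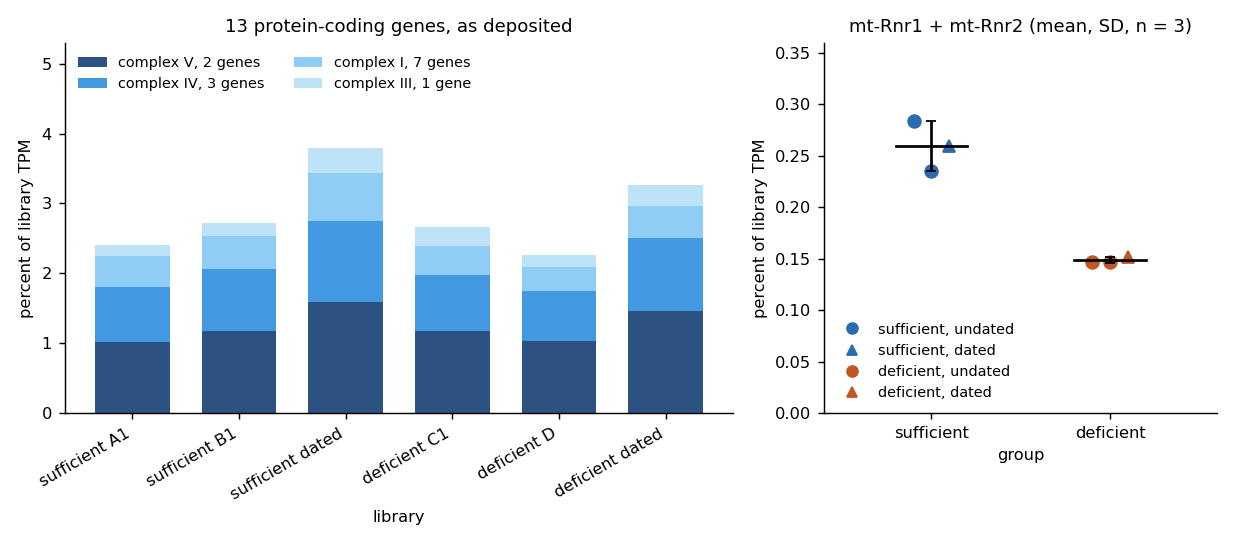
Left, percent of library TPM taken by the 13 mitochondrial protein-coding genes as deposited, stacked by respiratory complex, 1 bar per library; right, percent taken by mt-Rnr1 and mt-Rnr2 together, 1 point per library with mean and SD (n = 3). The dated bars are the tallest of each group at 3.80% and 3.26%, and the ribosomal RNA shares of the deficient libraries, 0.147% to 0.152%, lie below the sufficient range of 0.235% to 0.284%.

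Complex I, which takes electrons from NADH, has 7 subunits encoded in the mitochondria, and they divided into genes whose groups did and did not overlap. mt-Nd3 (chrM:9459-9806), whose copy sequence is printed above, had 8.58, 8.72 and 8.81 in sufficient A1, B1 and dated and 8.00, 7.56 and 8.03 in deficient C1, D and dated. All deficient values lay below all sufficient ones, with a difference of -0.84 and a standard error of 0.17 (limma adjusted p = 0.113, and 0.0353 with the date block). With Gm28438 added, the difference of mt-Nd3 was -0.64 (limma adjusted p = 0.214, and 0.0356 with the date block). mt-Nd4 (chrM:10167-11544) had 9.52, 9.48 and 10.27 in sufficient and 9.04, 8.74 and 9.31 in deficient libraries, in the same order. Deficient dated came close to the undated sufficient libraries without overlap, and the difference was -0.73 with a standard error of 0.24 (limma adjusted p = 0.299, and 0.0411 with the date block). The difference of mt-Nd4 was -0.47 without sufficient dated, and over all 6 libraries it stayed at -0.73 with Gm28439 added. mt-Nd5 (chrM:11742-13565) had 8.42, 8.28 and 8.86 in sufficient and 7.98, 7.91 and 8.03 in deficient libraries. Its difference of -0.55 with a standard error of 0.17 did not pass in limma either way (adjusted p = 0.272, and 0.0805 with the date block).

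mt-Nd6 (chrM:13552-14070) is the 1 protein-coding gene on the minus strand of the circle, where 8 of the transfer RNA genes also lie. It had 8.60, 8.55 and 9.15 in sufficient A1, B1 and dated and 7.83, 7.79 and 8.48 in deficient C1, D and dated. In deficient dated the value came close to the undated sufficient libraries, without overlap. The difference was -0.73 with a standard error of 0.24 (limma adjusted p = 0.283, and 0.0234 with the date block), and the undated libraries alone gave -0.77 against -0.67 for the dated ones. No label says that strand was kept, so reads of the opposite strand anywhere over mt-Nd6 cannot be separated from its own. mt-Nd6 also overlaps mt-Nd5 by 14 bases.

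The other complex I genes overlapped between groups. mt-Nd1 (chrM:2751-3707) had 11.02, 11.20 and 11.58 in sufficient and 11.13, 10.96 and 11.34 in deficient libraries, a difference of -0.12 with a standard error of 0.18. mt-Nd2 (chrM:3914-4951) had 9.05, 9.07 and 10.05 in sufficient and 9.15, 8.58 and 9.16 in deficient libraries, so that its difference of -0.43 ± 0.29 (SE) depended on sufficient dated, without which it was -0.095. mt-Nd4l was not readable as deposited, with a zero in each group. With Gm10222 added it had a difference of -0.32 with a standard error of 0.19 (limma adjusted p = 0.545).

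No gene of complexes III, IV and V passed the threshold with or without the date block, and mt-Co3 as deposited and mt-Co1 were lower in deficient libraries within both date classes. mt-Cytb, the cytochrome b of complex III (chrM:14145-15288), had 10.68, 10.90 and 11.85 in sufficient A1, B1 and dated and 11.40, 10.72 and 11.51 in deficient C1, D and dated. It was higher in deficient C1 than in both undated sufficient libraries and lower in the dated deficient than in the dated sufficient library, and its overall difference was 0.07 with a standard error of 0.33. mt-Co2 (chrM:7013-7696), which receives electrons from cytochrome c, had 12.05 to 12.41 in sufficient and 11.98 to 12.37 in deficient libraries, with a difference of -0.05 and a standard error of 0.16. With Gm28661 added the difference of mt-Co2 was -0.016. mt-Co1 (chrM:5328-6872), the catalytic subunit, had 11.30, 11.37 and 12.11 in sufficient and 11.25, 11.11 and 11.96 in deficient libraries. Within both date classes it was slightly lower in deficient libraries, by 0.15 and 0.14, and its overall difference of -0.15 had a standard error of 0.28. With Gm29216 added it was -0.25 (limma adjusted p = 0.786, and 0.213 with the date block).

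mt-Co3 (chrM:8607-9390) was the gene whose difference moved most when its copy was added. As deposited its difference was -0.48 with a standard error of 0.22 (limma adjusted p = 0.452, and 0.107 with the date block), and it was -0.47 in the undated and -0.50 in the dated libraries. With the identical Gm28437 added it was -0.10 with a standard error of 0.25 (limma adjusted p = 0.905), and the groups, 12.64 to 13.40 and 12.58 to 13.28 in log2(TPM + 1), overlapped almost wholly.

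The ATP synthase genes mt-Atp8 (chrM:7766-7969) and mt-Atp6 (chrM:7927-8607) are read from 1 messenger RNA and share 43 bases, printed here in capitals with 15 bases on either side (chrM:7912-7984, plus strand); the capitals begin with the start codon of mt-Atp6 and end with the stop codon of mt-Atp8.
mt-Atp8/mt-Atp6: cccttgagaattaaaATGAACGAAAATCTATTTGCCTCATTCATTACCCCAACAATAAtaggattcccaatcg
mt-Atp6 had 12.85, 13.04 and 13.47 in sufficient and 12.98, 12.76 and 13.27 in deficient libraries, and mt-Atp8 had 11.48, 11.72 and 12.16 and 11.86, 11.72 and 12.19. Their differences were -0.12 with a standard error of 0.20 and 0.14 with a standard error of 0.21, both smaller than their standard errors. With Gm10925 added, mt-Atp6 still had -0.12. The ratio of mt-Atp6 to mt-Atp8 was steadier than either gene. It was 2.60, 2.49 and 2.49 TPM of mt-Atp6 per TPM of mt-Atp8 in sufficient A1, B1 and dated and 2.18, 2.06 and 2.13 in deficient C1, D and dated. All deficient ratios lay below all sufficient ones, with log2 means of 1.34 ± 0.035 and 1.09 ± 0.039 (SD, n = 3). This ratio was picked with its values in view and was not tested. It uses the deposited rows, without Gm10925. How reads from the shared 43 bases were divided is not known, nor are the effective lengths behind the TPM.

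**Figure D4:**
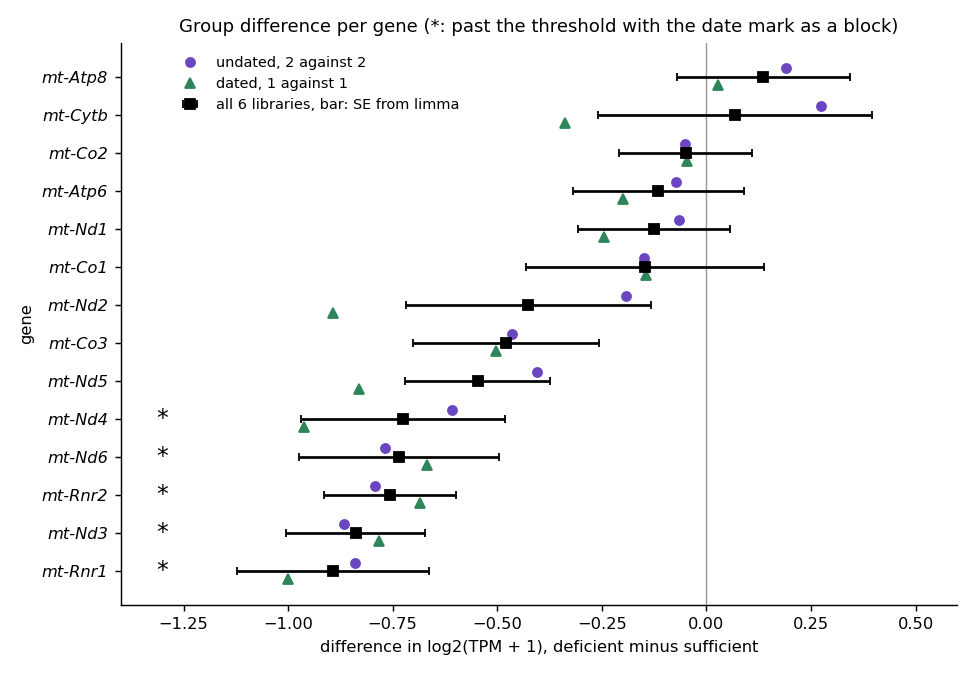
Difference in log2(TPM + 1), deficient minus sufficient, for 14 mitochondrial genes as deposited (mt-Nd4l, with zeros, is left out), with its limma standard error as a bar; circles are the undated and triangles the dated libraries alone, and stars mark genes past the threshold in the date-blocked fit. The ribosomal RNAs, mt-Nd3, mt-Nd6 and mt-Nd4 lie lowest and carry the stars, and mt-Atp8 and mt-Cytb lie just above 0.

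The lower-abundance genes had the more negative differences. With copies added, the 7 genes with a mean above 11 (mt-Atp6, mt-Co3, mt-Co1, mt-Co2, mt-Atp8, mt-Nd1 and mt-Cytb) had differences from -0.25 to 0.14, with a median of -0.10. The 8 genes below 11 had differences from -0.89 to -0.32, with a median of -0.68. As deposited the ranges were -0.15 to 0.14 for 6 genes and -0.89 to -0.13 for 9, mt-Co3 being the gene that changed side. The -0.13 belongs to mt-Nd4l, which has a zero in each group, and the smallest difference among the others below 11 was -0.43, of mt-Nd2. The level of 11 was chosen after the values were seen, and the genes share their libraries and precursor transcripts, so this is a description without a test. Both mt-Nd5 with 1824 bases and mt-Nd3 with 348 bases had a mean below 11, and the relation of length to the differences was not tested.

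**Figure D5:**
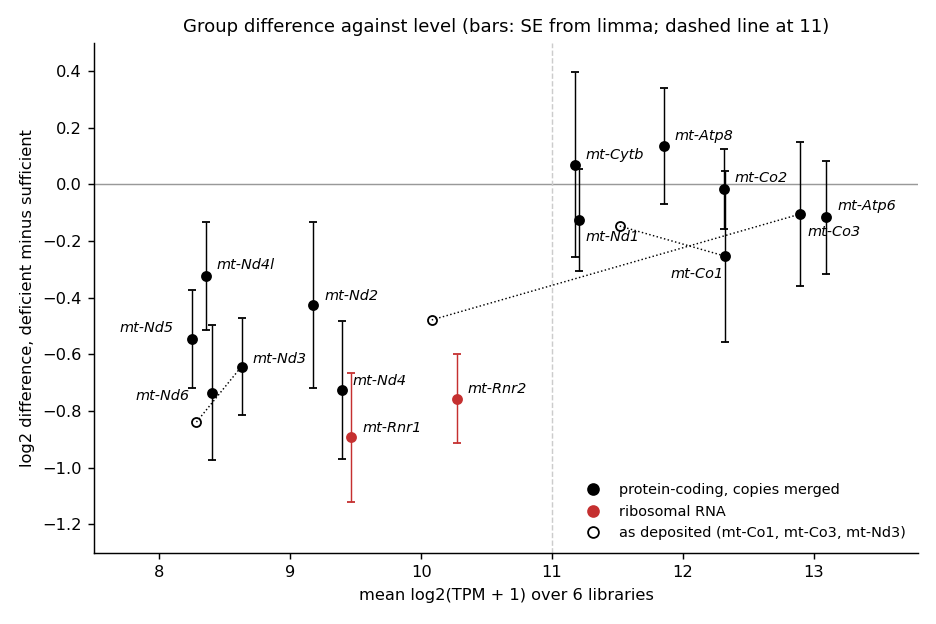
Difference in log2(TPM + 1), deficient minus sufficient, against the mean level over 6 libraries with nuclear copies added, for 13 protein-coding genes (black) and 2 ribosomal RNAs (red), with limma standard errors; open points joined by dotted lines give the deposited rows of mt-Co1, mt-Co3 and mt-Nd3. Genes right of the dashed line at 11 lie between -0.25 and 0.14, genes left of it between -0.89 and -0.32, and mt-Co3 crosses the line when its copy is added.

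Dated and undated libraries also differed, in another pattern. A limma fit with group and date mark together was chosen after the data were seen. As deposited, 13 of 15 genes had higher values in dated libraries, and 2 passed. They were mt-Co1 at 0.78 with a standard error of 0.11 (adjusted p = 0.0225) and mt-Nd6 at 0.62 with a standard error of 0.11 (adjusted p = 0.0328). Over all tested genes 3.56% passed in that comparison, and 0.576% did so with higher values in dated libraries. The share of all tested genes with higher values in dated libraries is not given here, so the 13 of 15 stands without a background. At an unadjusted p under 0.05 there were 11 of the 15, against 25.4% of all genes. With copies added, mt-Co3 also passed in the limma fit, at 0.66 (adjusted p = 0.0310, against 0.0767 as deposited). mt-Co1 then had 0.84 (adjusted p = 0.0177) and mt-Nd6 0.62 (adjusted p = 0.0329). The share of all genes that passed with copies added is not given here. The copies passed in both directions, Gm29216 at 0.92, Gm28437 at 0.69 and Gm28661 at -1.32, so the division of values between mt-Co2 and its copy shifted with the date while mt-Co2 itself had 0.26. The ribosomal RNAs went opposite ways, with mt-Rnr1 at -0.52 (adjusted p = 0.0825) and mt-Rnr2 at 0.31 (adjusted p = 0.130). There were 2.32 and 2.89 TPM of mt-Rnr2 per TPM of mt-Rnr1 in the dated libraries against 1.28 to 1.58 in the undated ones. Whether the group difference itself depended on the date was tested with an interaction term in limma. None of the 15 genes passed, against 0.0165% of all genes, and at an unadjusted p under 0.05 only mt-Nd4l, with its zeros, did, against 6.1% of all genes. This test rests on 1 dated library per group.

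The nuclear-encoded partners of these genes had medians near 0, set beside 0.09 over all tested genes, and no difference between them and the mitochondrial genes was tested. Over all 12155 tested genes, 7309 differences were positive and 4846 negative. Of 37 tested nuclear subunits of complex I, 19 had positive and 18 negative differences, with a median of 0.01 (undated alone 0.06, dated alone -0.10), and none passed in limma with or without the date block. The 3 of smallest p were Ndufa12 at 0.48, Ndufa13 at -0.38 and Ndufv1, which binds NADH, at 0.47. Complex III and cytochrome c genes had a median of 0.03 over 10 (undated alone 0.11, dated alone -0.09), with Uqcrc1 at 0.39, Cyc1 at 0.56 and Uqcr10 at -0.17. Complex IV subunits had a median of -0.07 with 10 of 12 negative (undated alone -0.04, dated alone -0.15), led by Cox7b at -0.36, Cox7a2l at -0.29 and Cox5a at -0.15. Ndufa4, at -0.02, was counted both here and in the complex I list, which was made by gene name, and in the ratios of both complexes. Complex V subunits had a median of 0.04 over 17 (undated alone 0.08, dated alone -0.06), with Atp5e at -0.35, Atp5b, the catalytic beta chain, at 0.55 and Atp5k at -0.25. Per TPM of nuclear complex I subunits there were 0.381, 0.363 and 0.476 TPM of mitochondrial ones, copies added, in sufficient A1, B1 and dated and 0.323, 0.294 and 0.348 in deficient C1, D and dated. The deficient ratios again lay below the sufficient ones, whereas the ratios of complexes III, IV and V overlapped, with log2 differences of 0.09, -0.05 and -0.09.

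No gene of the lists that maintain, transcribe, process and translate mitochondrial RNA passed the threshold with or without the date block. Positive differences are the more common sign over the whole table, with 7309 of 12155 tested genes, and the counts below stand beside that share. Of 31 tested genes of mitochondrial RNA processing, stability and decay, 27 had positive values, with a median of 0.24 (undated alone 0.40, dated alone 0.17). Their summed TPM was 754, 809 and 781 in sufficient A1, B1 and dated and 1023, 871 and 862 in deficient C1, D and dated, and 6 of the 31 were higher in each deficient than in each sufficient library, against 10.9% of all genes. The 3 of smallest p were Rexo2, an oligoribonuclease that clears short RNA, at 0.57 (limma adjusted p = 0.243), the ribosomal RNA methyltransferase Mrm2 at 0.88 and 1110008L16Rik, which encodes the nuclease subunit of mitochondrial RNase P, at 0.66. In the transcription and replication list 14 of 22 were positive, with a median of 0.19 (undated alone 0.28, dated alone -0.04). It was led by the exonuclease Mgme1 at 0.93, the thymidine kinase Tk2 at 0.58 and Rnaseh1 at 0.70. Of 78 mitochondrial ribosomal proteins 50 were positive with a median of 0.06 (undated alone 0.18, dated alone -0.14), and Mrps22 at 0.80, Mrpl38 at 1.23 and Mrps18b at 0.83 had the smallest p. Regulators of biogenesis and mitophagy had a median of 0.07 over 13, with Myc at 0.81, Gabpa at 0.47 and Sqstm1 at 0.44, and sensors of mitochondrial nucleic acid a median of 0.01 over 9, with Ifih1 at -0.32, Trex1 at -0.27 and Zbp1 at -0.19. Over all tested genes the median was 0.09.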

How the data were processed

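The authors deposited 1 table of gene-level log2 values, identified as log2(TPM + 1) because back-calculated TPM summed to between 999999 and 1000001 in each library. STAR, RSEM and limma, GRCm38 and mm10 are named per the submitters' processing notes, without versions. All 55450 identifiers matched GENCODE M21. Column names show the group but no replicate number.

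Genes with log2 of at least 1 in at least 3 of 6 libraries (12155) were compared with limma 3.58.1 in R 4.3.3 (lmFit, eBayes with trend, no covariate, two-sided, Benjamini-Hochberg adjusted over all tested genes, threshold 0.05). Differences are deficient minus sufficient. On simulated data with the real spread, 20.4% of genes changed by 1 and 62.4% of genes changed by 2 on the log2 scale were called. Nuclear copies were found with blastn. Python 3.11.15, pandas 2.3.3 and matplotlib 3.10.9 were used.

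Members, lists and the date block were chosen with earlier results of these data known. Named list genes are those past the threshold and the 3 of smallest p. Alternatives varied the filter, scaling, pseudocount, variance model, threshold, copies, date mark and libraries.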

Additional observations from a re-analysis of the deposited data

How the results depend on the processing

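No paired analysis was possible because the columns of the table carry no replicate numbers. The count of genes called among all tested was 25 (16 higher, 9 lower), and 240 with the date mark as a block (136 higher, 104 lower; also 240 with nuclear copies merged), 215 without both dated libraries, 90 at an adjusted p under 0.1, 38 with quantile normalization (16 higher, 22 lower), 4 with no mean-variance trend, 1 with no filter, 0 without sufficient B1 and deficient C1, and 0 to 121 when 1 library was left out (with the date block 12 to 218, with 40 without deficient D and 15 without sufficient B1). The count of mitochondrial genes called was 0, and 5 with the date block, with or without merged copies, 2 without both dated libraries (mt-Rnr2 and mt-Nd6), 0 to 0 when 1 library was left out without the block and 0 to 5 with it. The 6 genes without overlap were lower under all 21 alternatives. Signs changed only for genes whose adjusted p stayed above 0.05 under all 21 alternatives: with quantile normalization mt-Co2 had 0.060 and mt-Atp6 0.037, without sufficient B1 and deficient C1 mt-Cytb had -0.15, and without both dated libraries mt-Nd4l had 1.64. When 1 library was left out, mt-Nd1 ranged from -0.25 to 0.033, mt-Co1 from -0.41 to 0.11, mt-Co2 from -0.15 to 0.057, mt-Atp6 from -0.25 to 0.060, mt-Atp8 from -0.019 to 0.32, mt-Cytb from -0.16 to 0.42 and mt-Nd4l from -1.54 to 1.21. With 1 library left out and the date block, mt-Co2 had 0.023 without deficient D and 0.011 without sufficient B1, mt-Nd4l 0.72 without sufficient A1, and mt-Cytb -0.18 without deficient C1 and -0.053 without sufficient A1. The cause of these changes was not tested. The messenger RNA total ranged from -0.26 to 0.073 when 1 library was left out. The lengths used to weight nuclear copies are annotated lengths, since effective lengths are not known.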
